A study of Mus musculus with 6 samples.

Results

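The 44 genes described here encode ribosome biogenesis factors, the nucleolar proteins that transcribe, modify, cut and fold ribosomal RNA and assemble it with ribosomal proteins. They were taken as a list of named genes, drawn up with earlier results of these data known, and all 44 were found by symbol among the 19977 genes of the deposited table. All 44 also passed the filter on low values, which kept 10509 genes with a mean FPKM (fragments scaled by transcript length and library size) of at least 1 over 6 libraries. The cells were CD4+ T cells from the spleen and lymph nodes of C57BL/6 mice, wild type, sorted by flow cytometry, and total RNA was sequenced. One group of 3 libraries came from young mice and the other group of 3 from old mice of 11 months. The culture protocol gives the young mice as 6 to 8 weeks old, while their sample titles carry the code 1M, and the labels do not settle which holds. Both groups were kept for 6 hours in RPMI medium with anti-CD3 and anti-CD28, which stand in for antigen and costimulation, so every library is from stimulated cells and unstimulated cells were not analysed here. Whether the 3 libraries of a group are from different animals is not stated, and the p-values therefore rest on a spread among libraries that may be technical.

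A ribosome begins in the nucleolus, where RNA polymerase I transcribes one long precursor of several ribosomal RNAs. Small nucleolar RNAs guide the chemical marking of that precursor, in particles of the box C/D kind, which add methyl groups, and of the box H/ACA kind, which convert uridine to pseudouridine. Separate sets of factors then assemble the small and the large subunit. A resting T cell makes few ribosomes, and after its receptor is engaged the nucleolus enlarges and these genes rise, in part through the transcription factor Myc, before the cell grows and divides.

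The factors were divided into 6 groups by role: 4 subunits of RNA polymerase I, 3 proteins of the box C/D particle, 4 of the box H/ACA particle, 6 abundant nucleolar proteins, 14 factors of the small subunit and 13 of the large subunit. A feature that the list was not chosen for is that several of these genes carry small nucleolar RNAs in their introns. In the GENCODE M21 annotation of GRCm38, 7 of the 44 genes (15.9%) held at least 1 such RNA gene on the same strand and outside the exons of their protein-coding transcripts, against 178 of 10189 tested genes found in that annotation (1.75%). The 20 RNAs were spread over Nop56 and Nop58 with 4 each, Ncl, Gnl3 and Wdr43 with 3 each, Tsr1 with 2 and Dkc1 with 1. The first of the RNAs printed here lies in an intron of Nop56 and the second in an intron of Nop58, the genes of the core proteins that box C/D RNAs bind, and the others lie in Ncl and Gnl3. They are shown because each carries the sequence that this particle recognises. Capitals mark box C (TGATGA) near the 5′ end and box D (CTGA) near the 3′ end, in DNA letters as GENCODE gives them. Their own levels were not measured here.
Snord110, in Nop56 (chr2:130275506-130275573, + strand): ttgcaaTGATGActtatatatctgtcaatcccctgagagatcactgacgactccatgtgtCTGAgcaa
Snord11, in Nop58 (chr1:59704790-59704873, + strand): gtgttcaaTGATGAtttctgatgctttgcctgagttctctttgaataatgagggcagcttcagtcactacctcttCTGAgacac
Snord82, in Ncl (chr1:86356261-86356330, - strand): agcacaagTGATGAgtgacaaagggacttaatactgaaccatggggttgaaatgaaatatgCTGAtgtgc
Snord69, in Gnl3 (chr14:31014287-31014366, - strand): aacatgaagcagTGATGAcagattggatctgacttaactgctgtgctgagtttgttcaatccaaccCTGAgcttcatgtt

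Promoter windows from RefSeq on GRCm38.p6, of 250 bases before to 50 after the start site, were on hand for 39 of the 44 genes. They were searched for CACGTG, the E-box that Myc and related factors bind and which reads the same on both strands, and for the GC box GGGCGG on either strand. CACGTG stood in 7 of the 39 genes (17.9%), which were Nop2, Ltv1, Utp20, Pes1, Mybbp1a, Tsr1 and Wdr43, against 12.2% of 8510 tested genes with a window and 8.09% of all 27025 genes with one. GGGCGG stood in 30 of the 39 genes (76.9%), against 68.9% of the tested genes. In Nop2 the E-box began 60 bases before the start site, and in the other 6 genes it began between base 3 and base 41 after it, counting the start site as base 1. A match is a string of letters and not a measured site, and the windows leave out introns and distant elements. The 6 windows printed here are those of Nop2, Pes1 and Mybbp1a, in which CACGTG was found, of Nop56, and of Nhp2 and Wdr12, for which the comparison of ages without young replicate 1 passed its threshold. Capitals mark CACGTG and GGGCGG or its reverse complement CCGCCC.
Nop56 (chr2:130274162-130274461, + strand): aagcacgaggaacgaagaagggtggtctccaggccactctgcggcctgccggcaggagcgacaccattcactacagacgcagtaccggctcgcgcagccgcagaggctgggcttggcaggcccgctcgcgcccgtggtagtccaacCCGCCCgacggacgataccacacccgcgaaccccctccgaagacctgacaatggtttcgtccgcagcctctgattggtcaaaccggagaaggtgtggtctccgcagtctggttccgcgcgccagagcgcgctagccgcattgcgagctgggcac
Nop2 (chr6:125131633-125131932, + strand): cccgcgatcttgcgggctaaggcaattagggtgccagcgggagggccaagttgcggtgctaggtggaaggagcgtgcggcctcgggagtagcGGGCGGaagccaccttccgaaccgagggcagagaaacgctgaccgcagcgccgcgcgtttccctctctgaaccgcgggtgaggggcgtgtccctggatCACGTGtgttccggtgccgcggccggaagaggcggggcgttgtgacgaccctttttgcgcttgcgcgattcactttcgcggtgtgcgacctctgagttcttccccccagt
Pes1 (chr11:3963725-3964024, + strand): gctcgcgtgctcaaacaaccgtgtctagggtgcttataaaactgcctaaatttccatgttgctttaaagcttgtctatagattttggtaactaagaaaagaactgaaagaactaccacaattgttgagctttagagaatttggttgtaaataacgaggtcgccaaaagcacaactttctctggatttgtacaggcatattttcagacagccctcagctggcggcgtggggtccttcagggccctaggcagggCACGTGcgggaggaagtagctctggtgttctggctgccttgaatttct
Mybbp1a (chr11:72441077-72441376, + strand): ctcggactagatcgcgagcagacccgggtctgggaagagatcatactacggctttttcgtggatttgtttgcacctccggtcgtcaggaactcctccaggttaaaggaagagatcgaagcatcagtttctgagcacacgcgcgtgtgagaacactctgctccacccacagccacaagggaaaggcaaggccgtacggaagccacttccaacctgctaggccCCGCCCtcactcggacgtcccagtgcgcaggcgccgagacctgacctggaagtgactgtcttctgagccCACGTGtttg
Nhp2 (chr11:51619523-51619822, + strand): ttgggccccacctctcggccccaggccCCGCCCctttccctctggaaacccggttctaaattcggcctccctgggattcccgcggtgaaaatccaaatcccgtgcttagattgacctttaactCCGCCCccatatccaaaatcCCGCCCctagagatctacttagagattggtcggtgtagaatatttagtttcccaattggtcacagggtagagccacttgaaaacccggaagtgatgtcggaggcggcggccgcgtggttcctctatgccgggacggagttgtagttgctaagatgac
Wdr12 (chr1:60098451-60098750, - strand): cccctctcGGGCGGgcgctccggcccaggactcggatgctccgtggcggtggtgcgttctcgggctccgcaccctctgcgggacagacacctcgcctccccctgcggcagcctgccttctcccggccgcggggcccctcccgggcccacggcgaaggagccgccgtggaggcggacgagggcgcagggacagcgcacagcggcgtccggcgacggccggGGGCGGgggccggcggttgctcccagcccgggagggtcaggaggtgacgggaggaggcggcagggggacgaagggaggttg

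Depth was similar in all libraries, with between 16932551 and 18708205 expected counts each. Young replicate 1 stood apart from every other library: its log2-scaled counts correlated across genes at 0.924 and 0.911 with the other young libraries, while those 2 correlated at 0.977 (across genes, which are not independent replicates). It lay below both other young libraries for 41.2% of the 10509 tested genes and above both for 45.7%. The sorted cells carried their defining markers, with a summed level of Cd4, Cd3d, Cd3e, Cd3g, Cd28 and Lck between 2205 and 2606 CPM (counts scaled by library size and TMM factors) in young and 2342 to 2928 CPM in old libraries. Markers of other cell types were low. The 5 B-cell markers summed to 10.7 to 29.7 CPM in young and 13.4 to 21.8 in old libraries, and all 5 were above both other young libraries in young replicate 1. The 5 neutrophil markers summed to 11.3 to 29.0 CPM in young and 1.40 to 11.5 in old libraries, the 5 macrophage and monocyte markers to 13.7 to 21.6 and 11.7 to 16.5, and the 2 CD8 T-cell markers to 16.6 to 27.4 and 11.2 to 14.6. The 4 NK-cell markers summed to 0.633 to 1.44 CPM in young and 2.77 to 5.70 in old libraries, the 4 dendritic-cell markers to 7.29 to 15.1 and 10.2 to 11.95, and the 4 red-cell markers to 0.633 to 4.20 and 0.376 to 1.14. None of these markers was at 0 in all 6 libraries, and their part in the results was not tested. Because whole populations were sequenced, fewer cells of a kind and less RNA per cell cannot be told apart.

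Old and young cells did not differ detectably in these factors when all libraries were used, and the young libraries spanned a wider range than the old ones. Together the 44 genes took 0.725%, 1.43% and 1.63% of all counts in young replicates 1, 2 and 3, and 1.15%, 1.34% and 1.26% in old replicates 1, 2 and 3. The group means were almost equal, at 1.26% ± 0.475 in young and 1.25% ± 0.0978 in old libraries (SD, n = 3 each), while young replicate 1 held the lowest share and the other young libraries the highest. By the quasi-likelihood test of edgeR, adjusted by Benjamini-Hochberg, 0 of the 44 genes rose and 0 fell in old cells, against 0.742% of all tested genes called higher and 0.133% called lower (0.875% in all). None of the 44 had an unadjusted p under 0.05 either, against 10.6% of all tested genes (3.96% lower in old cells). The smallest adjusted p in edgeR's test was 0.556, for Wdr12. DESeq2 and limma on log2(FPKM + 1) likewise called 0 of the 44. Of the 10509 tested genes, DESeq2 called 374 higher and 127 lower, and limma 83 and 16. In the edgeR fit the median log2 difference, old minus young, was 0.04 over the 44 genes and -0.03 over all tested genes. Of the 44 values, 25 were above 0 (56.8%, against 44.9% of all tested genes). Standard errors ran from 0.20 to 0.41 (median 0.28), and 95% intervals reached from -1.18 at the lowest to 0.99 at the highest. The groups were apart, with no overlap, for 0 of the 44 genes, against 16.4% of all tested genes.

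**Figure D1:**
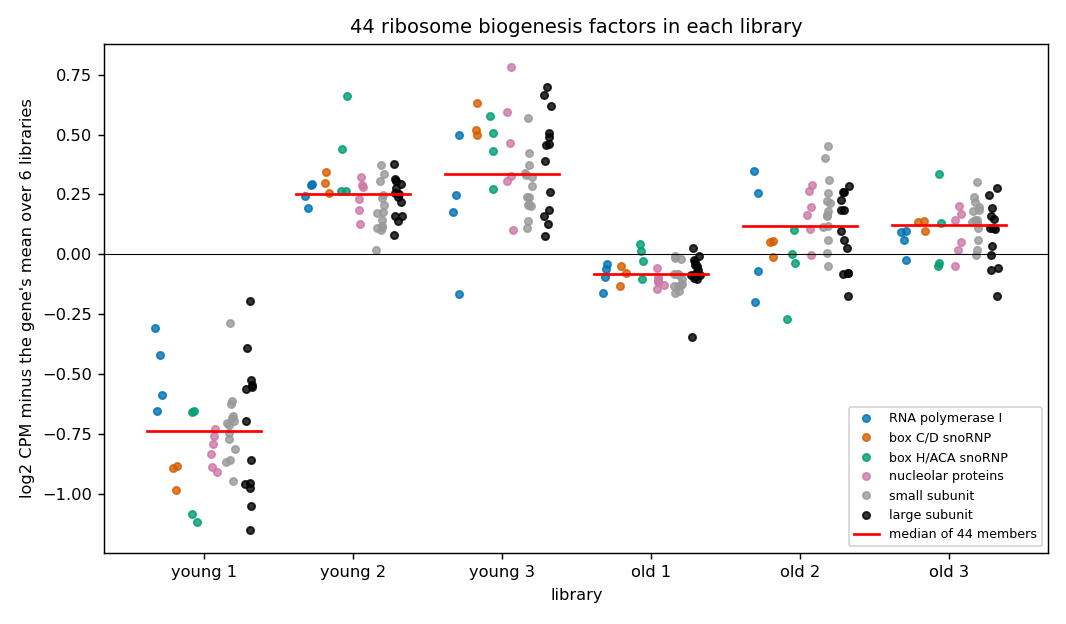
Level of each of the 44 genes in each library, as log2 CPM minus that gene's mean over the 6 libraries, coloured by role, with the median of the 44 as a red line. The medians are -0.74, 0.25 and 0.33 in young replicates 1, 2 and 3 and -0.08, 0.12 and 0.12 in old replicates 1, 2 and 3, so the old libraries lie between young replicate 1 and the other young libraries.

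Every one of the 44 genes was lower in young replicate 1 than in both other young libraries, against 41.2% of all tested genes. Of the 44, 43 were lower there than in all 5 other libraries (97.7%, against 32.8% of all tested genes). The exception was Wdr12, which was lower still in old replicate 1. Relative to the mean of the other 2 young libraries, the level in young replicate 1 ranged from 31.9% for Ebna1bp2, a factor of the large subunit, to 79.3% for Polr1a, the largest subunit of RNA polymerase I, with a median of 49.9%. Over all tested genes that median was 103%. The coefficient of variation over the 3 young libraries had a median of 35.7% over the 44 genes, against 10.3% over the 3 old libraries. For all tested genes these medians were 23.8% and 10.6%, and a test of these spreads was not made. For 20 of the 44 genes all 3 old libraries lay between young replicate 1 and both other young libraries, against 13% of all tested genes.

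Without young replicate 1, which leaves 3 old against 2 young libraries, most of the factors stood lower in old cells by a modest amount. All 44 genes had their lowest young value in the library left out, so a downward shift of their differences was set in advance. The genes were measured in the same libraries, so the counts of genes below are descriptions and not independent observations. The median log2 difference became -0.24, against 0.01 over all tested genes, and 41 of the 44 values were below 0 (93.2%, against 49% of all tested genes). The same edgeR test, adjusted over all genes, called 2 of the 44 lower and 0 higher. That is 4.55% lower, against 2.98% of all tested genes called lower, 5.86% called higher and 8.84% called in all, so the share of calls was near that of other genes. Another 14 genes had an unadjusted p under 0.05 without passing the adjustment, which makes 16 of 44 (36.4%), against 28.1% of all tested genes, or 13.3% for those lower in old cells. For 21 of the 44 genes all 3 old libraries lay below both remaining young libraries (47.7%, against 23.2%), and for 0 of the 44 did they all lie above (against 24.3%). With each of the other libraries left out in turn, 0 of the 44 genes were called. Those fits called few genes of any kind, with 0 to 7 higher and 0 to 2 lower among the 10509 tested genes. The median of the 44 was 0.16 without young replicate 2, 0.22 without young replicate 3, and 0.11, -0.02 and 0.01 without old replicates 1, 2 and 3.

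**Figure D2:**
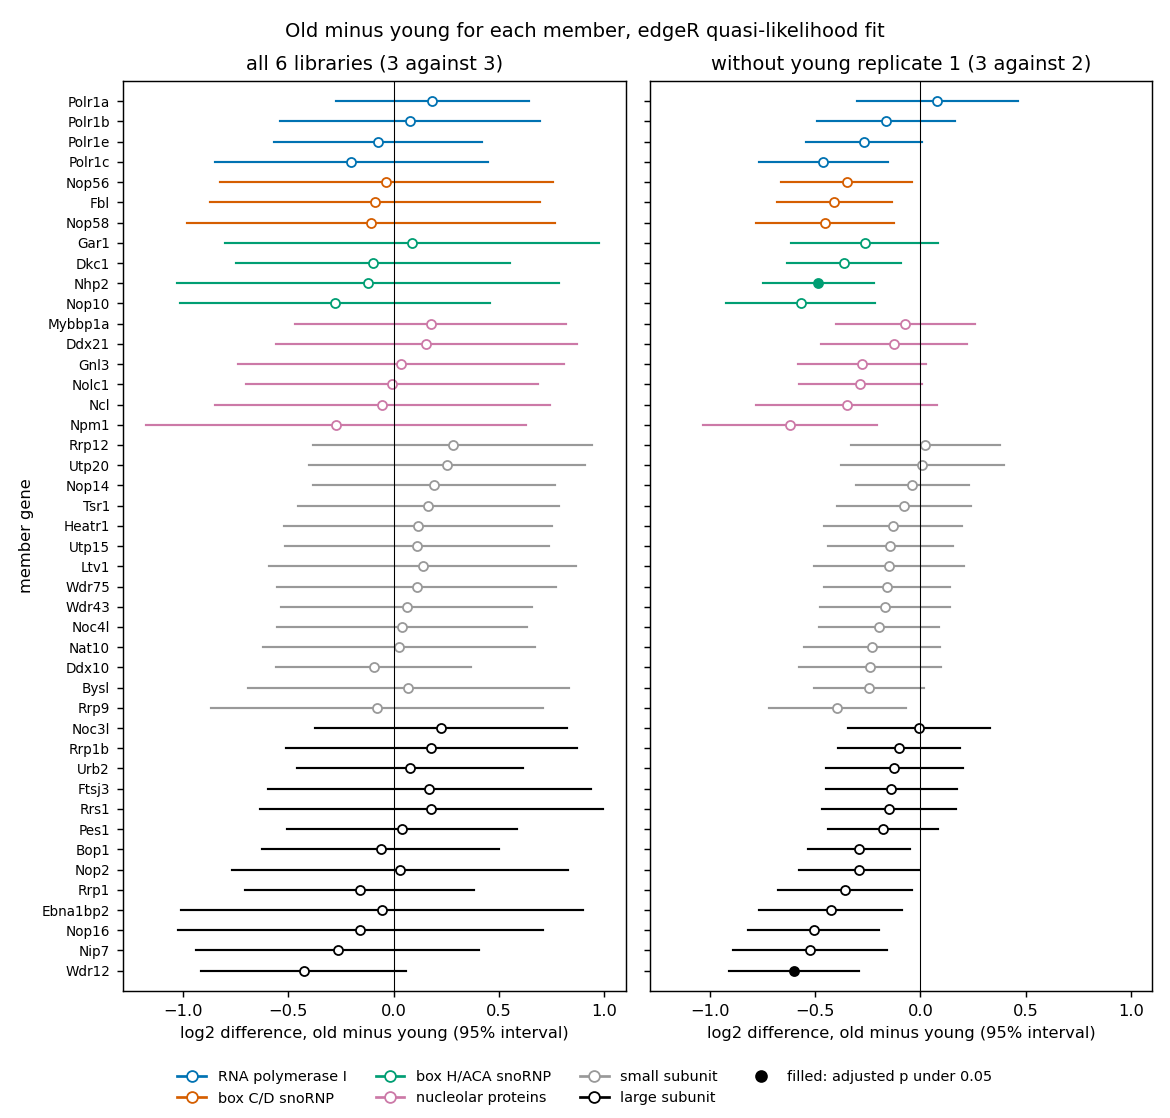
Log2 difference, old minus young, of each of the 44 genes with its 95% interval from edgeR's quasi-likelihood fit, for all libraries (left) and without young replicate 1 (right), coloured by role, with filled points for an adjusted p under 0.05. All 44 intervals on the left include 0, and on the right 16 lie wholly below 0, of which those of Nhp2 and Wdr12 passed the adjusted threshold.

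RNA polymerase I was represented by 4 subunits, whose log2 differences ran from -0.20 to 0.18 in the fit of all libraries and whose median was -0.21 without young replicate 1. Polr1a, the largest subunit, stood at 113, 160 and 125 CPM in young replicates 1, 2 and 3 and at 136, 177 and 137 CPM in old replicates 1, 2 and 3. Young replicate 1 was lowest and old replicate 2 highest, and the groups overlapped. Its log2 difference was 0.18 ± 0.20 (SE, n = 3 each; 95% interval -0.27 to 0.64) with all libraries and 0.08 ± 0.17 without young replicate 1. Polr1b, the second-largest subunit, stood at 88.6, 171 and 158 CPM in young and 125, 167 and 149 CPM in old libraries, with young replicate 1 lowest, young replicate 2 highest and the groups overlapping. Polr1c, a subunit shared with RNA polymerase III, stood at 29.9, 55.3 and 63.7 CPM in young and 43.3, 39.4 and 47.0 CPM in old libraries. All old values of Polr1c lay between young replicate 1 and the other young libraries, and its log2 difference was -0.20 ± 0.28 with all libraries and -0.46 ± 0.13 without young replicate 1 (adjusted p = 0.0704 in edgeR's test, not called). Polr1e, which has a part in initiation, stood at 14.8 ± 3.32 FPKM in young and 14.2 ± 0.769 FPKM in old libraries (SD, n = 3 each).

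The 3 box C/D proteins were among the most abundant members. On the FPKM scale, which corrects for length, Fbl, the methyltransferase fibrillarin, stood at 378 ± 156 in young and 361 ± 12.7 in old libraries. Nop56 and Nop58, the paired scaffold proteins that hold fibrillarin on the guide RNA, stood at 267 ± 112 and 168 ± 79.1 FPKM in young and 267 ± 16.9 and 159 ± 12.7 FPKM in old libraries (SD, n = 3 each). The order Fbl, Nop56, Nop58 was the same in all 6 libraries. In CPM, Fbl had values of 221, 518 and 575 in young and 394, 404 and 437 in old libraries, and all 3 old values lay between young replicate 1 and the other young libraries. Nop56 had 272, 604 and 725 CPM in young and 479, 526 and 558 CPM in old libraries, with the same order of groups. Nop58 had 156, 381 and 479 CPM in young and 282, 320 and 340 CPM in old libraries, again with all old values in between. Their log2 differences with all libraries were -0.09 ± 0.34, -0.03 ± 0.34 and -0.11 ± 0.37 (SE, n = 3 each). Without young replicate 1 they became -0.41 ± 0.12, -0.35 ± 0.14 and -0.45 ± 0.14, none of them called, with adjusted p of 0.0707, 0.139 and 0.0871 in edgeR's quasi-likelihood test.

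**Figure D3:**
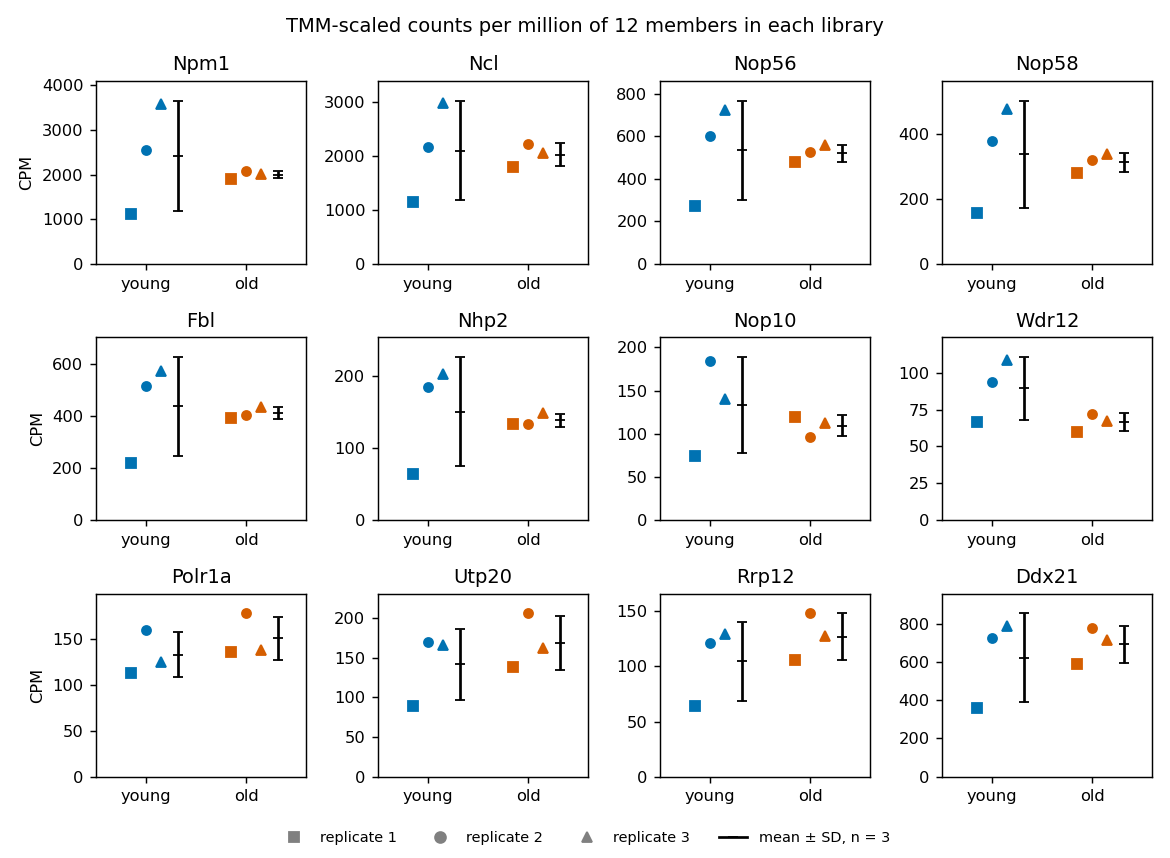
TMM-scaled CPM of 12 of the genes in each library, with squares, circles and triangles for replicates 1, 2 and 3 and the mean ± SD of each group (n = 3) beside them, on axes that start at 0. For Nop56, Nop58, Fbl, Npm1, Nhp2 and Nop10 the 3 old libraries lie between young replicate 1 and the other young libraries, and for Polr1a, Utp20 and Rrp12 old replicate 2 is the highest of the 6.

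The box H/ACA proteins held 1 of the 2 genes called without young replicate 1. Nhp2, a core protein of this particle and of telomerase, stood at 64.0, 184 and 203 CPM in young and 133, 133 and 149 CPM in old libraries. The 3 old values lay within a narrow band between young replicate 1 and the other young libraries. The log2 difference of Nhp2 was -0.12 ± 0.39 with all libraries (adjusted p = 0.964), and it fell by 0.49 ± 0.11 without young replicate 1 (adjusted p = 0.0391, edgeR's quasi-likelihood test). Nop10, the smallest protein of the particle, stood at 73.8, 185 and 141 CPM in young and 120, 96.5 and 113 CPM in old libraries, a log2 difference of -0.28 ± 0.31 with all libraries and -0.57 ± 0.15 without young replicate 1 (adjusted p = 0.0591, not called). Dkc1, the pseudouridine synthase dyskerin, differed by -0.10 ± 0.28 and -0.36 ± 0.12, and Gar1, which binds dyskerin, by 0.09 ± 0.38 and -0.26 ± 0.15, with no call for either. Per length, the 4 partners were not level. Nop10 and Nhp2 stood at 154 ± 16.4 and 141 ± 6.55 FPKM in old libraries, and Gar1 and Dkc1 at 72.3 ± 8.39 and 67.7 ± 6.03 FPKM (SD, n = 3 each). In each old library Nop10 stood above Nhp2, by little in old replicate 2 (137.1 against 136.6 FPKM). Nop10 was also above Nhp2 in young replicates 1 and 2, but below it in young replicate 3 (189.5 against 198.0 FPKM). The order of Gar1 and Dkc1 changed between old libraries, and the difference within neither pair was tested.

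Npm1 and Ncl dominated the list. Together they made up 31.8% to 33.0% of the counts of all 44 genes in 5 of the libraries and 39.0% in young replicate 3. Npm1, the nucleolar chaperone nucleophosmin, stood at 1125, 2551 and 3583 CPM in young and 1905, 2078 and 2014 CPM in old libraries. Its lowest and highest values were both young, and the old values lay close together between young replicate 1 and the other young libraries. Its log2 difference was -0.28 ± 0.39 (95% interval -1.18 to 0.63) with all libraries and -0.62 ± 0.18 without young replicate 1 (adjusted p = 0.071 in edgeR's test, not called). Npm1 has processed pseudogenes that can share its reads, and how the counting divided them is not known, so its level is uncertain. Ncl, nucleolin, which binds nascent ribosomal RNA, stood at 1147, 2174 and 2997 CPM in young and 1795, 2226 and 2063 CPM in old libraries, and old replicate 2 lay above young replicate 2. Its log2 difference was -0.05 ± 0.34 with all libraries and -0.35 ± 0.19 without young replicate 1, with no call. Mybbp1a, which binds Myb and regulates ribosomal RNA synthesis, stood at 426, 862 and 762 CPM in young and 680, 851 and 784 CPM in old libraries. Apart from young replicate 1 the values of Mybbp1a overlapped, with a log2 difference of 0.18 ± 0.27 with all libraries and -0.07 ± 0.14 without it. For Ddx21, an RNA helicase that links polymerase I transcription and processing, the differences were 0.15 ± 0.31 and -0.12 ± 0.15. For Nolc1, a chaperone of small nucleolar particles, they were -0.01 ± 0.30 and -0.29 ± 0.13, and for Gnl3, the nucleolar GTPase nucleostemin, 0.04 ± 0.33 and -0.28 ± 0.13, with no call among them.

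Small subunit factors had 0 calls in either fit. The median log2 difference of these 14 genes was 0.11 in the fit of all libraries. There 12 of them were above 0, against 44.9% of all tested genes. All 14 had their lowest value in young replicate 1. Without that library their median was -0.15, and 12 of them were below 0, against 49% of all tested genes. Rrp12, which has a part in the export of pre-ribosomal subunits in yeast, stood at 63.6, 121 and 129 CPM in young and 106, 148 and 127 CPM in old libraries. Its log2 difference of 0.28 ± 0.28 was the highest of the 44 with all libraries, and it became 0.02 ± 0.15 without young replicate 1. Utp20, a very large scaffold of the early small subunit particle, stood at 89.5, 170 and 166 CPM in young and 138, 206 and 163 CPM in old libraries, a log2 difference of 0.25 ± 0.28 that became 0.01 ± 0.17. In both genes young replicate 1 was lowest and old replicate 2 highest. Rrp9, a protein of the U3 particle that directs early cuts of the precursor, was the most abundant of the group per length and stood at 68.8, 149 and 186 CPM in young and 119, 121 and 143 CPM in old libraries. Its log2 difference was -0.08 ± 0.34 with all libraries and -0.39 ± 0.14 without young replicate 1 (adjusted p = 0.118 in edgeR's test, not called). Wdr43, another early factor and the host of 3 small nucleolar RNAs, stood at 179, 298 and 345 CPM in young and 250, 307 and 301 CPM in old libraries, a log2 difference of 0.06 ± 0.25 that became -0.17 ± 0.13. The other 10 were Nop14, Wdr75, Utp15, Heatr1 and Noc4l of early particles, the later factors Ltv1, Bysl and Tsr1, the RNA acetyltransferase Nat10 and the helicase Ddx10. Without young replicate 1 their log2 differences lay between -0.25 for Bysl and -0.04 for Nop14.

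The 13 large subunit factors held Wdr12, the other gene called without young replicate 1. Wdr12 forms a complex with Pes1 and Bop1 that is needed to process the precursor of the large subunit RNA. It stood at 66.5, 93.6 and 108 CPM in young and 60.0, 72.3 and 67.6 CPM in old libraries, so that old replicate 1 lay below and the other old libraries just above young replicate 1. Its log2 difference was -0.43 ± 0.21 (95% interval -0.91 to 0.06; adjusted p = 0.556) with all libraries, and it fell by 0.60 ± 0.13 without young replicate 1 (95% interval -0.91 to -0.29; adjusted p = 0.0333, edgeR's quasi-likelihood test). Its partners differed less in the same fit, with -0.18 ± 0.11 for Pes1 and -0.29 ± 0.10 for Bop1, neither called, and the difference between partners was not tested. Per length the 3 partners stood at 84.2 ± 5.83, 66.2 ± 2.52 and 31.1 ± 2.87 FPKM in old libraries for Pes1, Bop1 and Wdr12 (SD, n = 3 each). In young libraries they stood at 81.4 ± 21.6, 68.2 ± 19.2 and 41.5 ± 9.07 FPKM. The gene span of Wdr12 overlaps that of Carf in RefSeq, and that of Nhp2 overlaps Rmnd5b, and since the strand setting of the counting is not given in the sources used here, reads in any shared sequence cannot be assigned.

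Among the remaining large subunit factors, Nip7, which takes part in processing of both subunits, stood at 73.3, 120 and 170 CPM in young and 104, 95.2 and 103 CPM in old libraries. Its log2 difference was -0.27 ± 0.29 with all libraries and -0.52 ± 0.16 without young replicate 1 (adjusted p = 0.0792 in edgeR's test, not called). Rrp1, a factor with the paralog Rrp1b, was the most abundant of the group per length and stood at 224, 312 and 414 CPM in young and 288, 279 and 282 CPM in old libraries. The 3 old values of Rrp1 differed by a coefficient of variation of 1.72%, the smallest of the 44 genes. Nop2, a methyltransferase of large subunit ribosomal RNA, stood at 111, 263 and 298 CPM in young and 207, 246 and 234 CPM in old libraries. Without young replicate 1 the log2 difference was -0.36 ± 0.14 for Rrp1 and -0.29 ± 0.12 for Nop2, neither called. The other 7 ran from -0.51 ± 0.13 for Nop16 and -0.43 ± 0.15 for Ebna1bp2 to within 0.01 of 0 for Noc3l, with Rrs1, Ftsj3, Urb2 and Rrp1b between -0.15 and -0.10, and none of them was called.

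By level, the 44 genes covered a range from 11.5 FPKM for Urb2 to 1610 FPKM for Npm1 as means over 6 libraries, with a median of 63.2 FPKM. Of the 44 genes, 18 had a single transcript in the table. In 19 of the other 26 the leading transcript held over 80% of the gene's FPKM in every library. The exceptions included Npm1, whose leading transcript held 58.6% to 67.8%, Nolc1 with 37.2% to 50.5%, and Polr1a with 38.6% to 69.1%. Such divisions between transcripts are estimates of a model and were summed per gene for every comparison above.

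Among these genes, log2 differences were higher for longer transcripts. An effective length was computed for each gene from the deposited counts and FPKM, and ran from 716 bases for Nop10 to 8969 bases for Utp20. Across the 44 genes, Spearman's rho between log2 length and the log2 difference, old minus young, was 0.69 without young replicate 1 and 0.59 with all libraries. Across all 10509 tested genes it was 0.32 and 0.13. The points are genes measured in the same libraries, so these coefficients are descriptions and have no p. Between libraries of the same age, differences also varied with length. The sign of each such coefficient depends on which library is taken first, so signs are not compared between pairs. The log2 level of young replicate 1, minus the mean of young replicates 2 and 3, had a rho of 0.47 across the 44 genes. Across all tested genes it was 0.35. The log2 ratio of old replicate 2 to old replicate 1 had a rho with length of 0.80 across the 44 genes and 0.49 across all tested genes. The log2 ratio of young replicate 3 to young replicate 2, the young libraries left when young replicate 1 is not used, had a rho of -0.39 across the 44 genes and -0.24 across all tested genes. The level of Utp20 in old replicate 2 was 149.5% of that in old replicate 1, and that of Nop10 was 80.55%. The tested genes were divided into 4 classes of like size by length. In the shortest class (113 to 1739 bases) the median log2 difference without young replicate 1 was -0.20, and the 8 factors there had a median of -0.47. In the longest class (4104 bases and over) these medians were 0.15 and -0.11, the latter over 10 factors. In the classes between them the medians were -0.03 and 0.04 over all genes and -0.28 and -0.24 over the factors. The factors' median was the lower in each class, in a fit whose left-out library set a downward shift of the factors in advance.

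**Figure D4:**
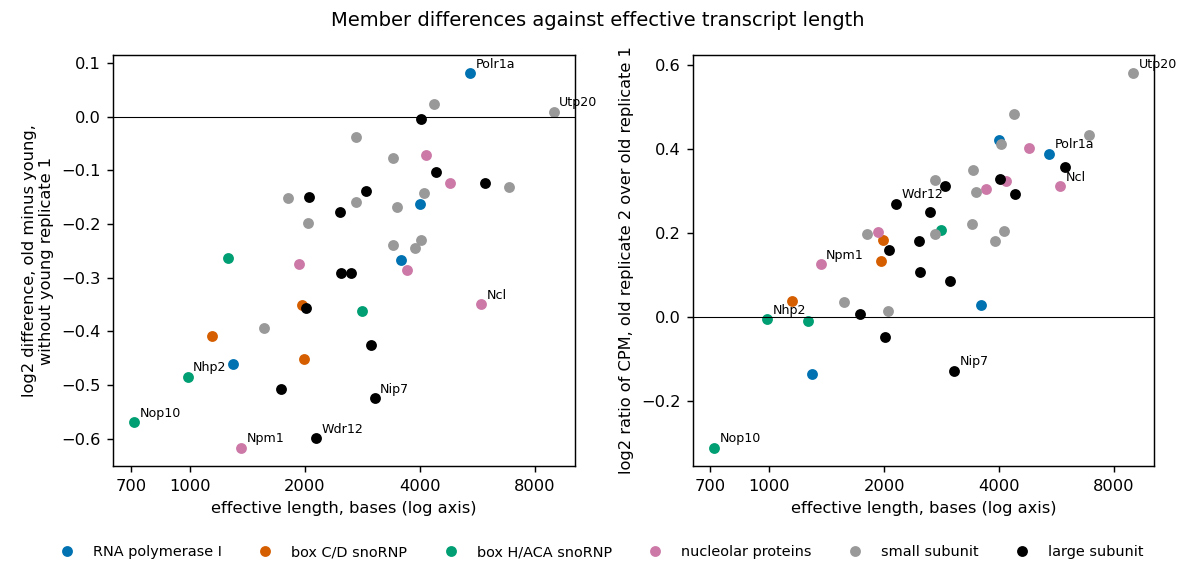
Left, log2 difference, old minus young, without young replicate 1, of each of the 44 genes against its effective length on a log axis. Right, log2 ratio of CPM in old replicate 2 to old replicate 1 against the same length. In both panels the short gene Nop10 lies low and the long genes Utp20 and Polr1a lie high.

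A fit with a length trend taken out of each library, an alternative chosen after the values were seen, was made for the same comparisons. With all libraries it called 0 of the 44 genes, against 106 higher and 17 lower of the 10509 tested genes. The median log2 difference of the 44 was 0.02. Leaving out young replicate 1 again set a downward shift in advance. The median was then -0.26, against -0.0035 over all tested genes, and all 44 values were below 0. Of the 44, 1 gene was called, Wdr12, at -0.56 ± 0.13 (adjusted p = 0.0439, edgeR's quasi-likelihood test). Over all tested genes 613 were called higher and 306 lower. The call of Nhp2 ended in that fit, at -0.24 ± 0.10 (adjusted p = 0.165), and the value for Npm1 was -0.44 ± 0.16 (adjusted p = 0.13). How far the lengths of transcripts, or what differs between libraries along with it, account for the values above was not tested beyond this fit.

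Other genes of the pathway, not among the 44, were mostly lower in young replicate 1 than in both other young libraries too. The list of RNA polymerase III had the smallest share, with 12 of 20. Of 161 genes on 6 further lists, 160 were tested. With all libraries 0 of them rose and 0 fell in edgeR's quasi-likelihood test, against 0.875% of all tested genes called. Only 1 of the 160 had an unadjusted p under 0.05, against 10.6% of all tested genes. That gene was Maf1, a repressor of RNA polymerase III, at -0.57 ± 0.23. Unlike most of these genes, Maf1 was highest in young replicate 1 (206 CPM), and without that library its difference was -0.33 ± 0.16, not called. For 141 of the 160, young replicate 1 lay below both other young libraries, against 41.2% of all tested genes. In the fit without young replicate 1, 0 rose and 6 fell, which is 3.75% of the 160, near the 2.98% of all tested genes called lower in that fit. By list, the medians without young replicate 1 were -0.21 over 49 other small subunit factors, -0.16 over 49 other large subunit factors, -0.31 over 11 assembly factors of small nucleolar particles, -0.38 over 14 genes of the RNA exosome, -0.15 over 17 of the polymerase I machinery and -0.11 over 20 of polymerase III. Of the initiation factors of polymerase I, Rrn3, which recruits the enzyme, stood at 91.2, 118 and 112 CPM in young and 102, 122 and 131 CPM in old libraries. Ubtf, which binds the ribosomal DNA, stood at 189, 298 and 352 CPM in young and 265, 292 and 255 CPM in old libraries. Neither was called.

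Genes that mark the state of the T cell moved with young replicate 1 as well. Of 20 early genes of receptor stimulation, 19 were lower in it than in both other young libraries, against 41.2% of all tested genes. Of 19 tested genes of naive cells, 16 were higher in it than in both, against 45.7% of all tested genes. Myc, which is on the first of these lists, stood at 315, 789 and 618 CPM in young and 523, 637 and 774 CPM in old libraries, a log2 difference of 0.17 ± 0.34 with all libraries and -0.13 without young replicate 1, with no call. Across the other libraries the early genes had another order than the ribosome biogenesis factors. Their median deviation was 0.21, 0.40 and 0.64 in old replicates 1, 2 and 3 against -0.07 and -0.23 in young replicates 2 and 3, while the 44 factors stood at -0.08, 0.12 and 0.12 against 0.25 and 0.33. With all libraries 1 of the 20 early genes was called, Batf, at 1.53 ± 0.18 (adjusted p = 0.025, edgeR's quasi-likelihood test). Of all tested genes, 0.742% were called higher in that fit. Without young replicate 1 the same test called 8 of the 20 higher and 0 lower, against 5.86% and 2.98% of all tested genes. Of the 19 naive genes, 0 were called with all libraries, against 0.875% of all tested genes. An unadjusted p under 0.05 was found for 8 of them in edgeR's test, against 10.6% of all tested genes. Without young replicate 1, 3 were called higher and 2 lower, against the same 5.86% and 2.98%. What part the state of the cells in young replicate 1 had in the low values of the 44 factors was not tested.

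**Figure D5:**
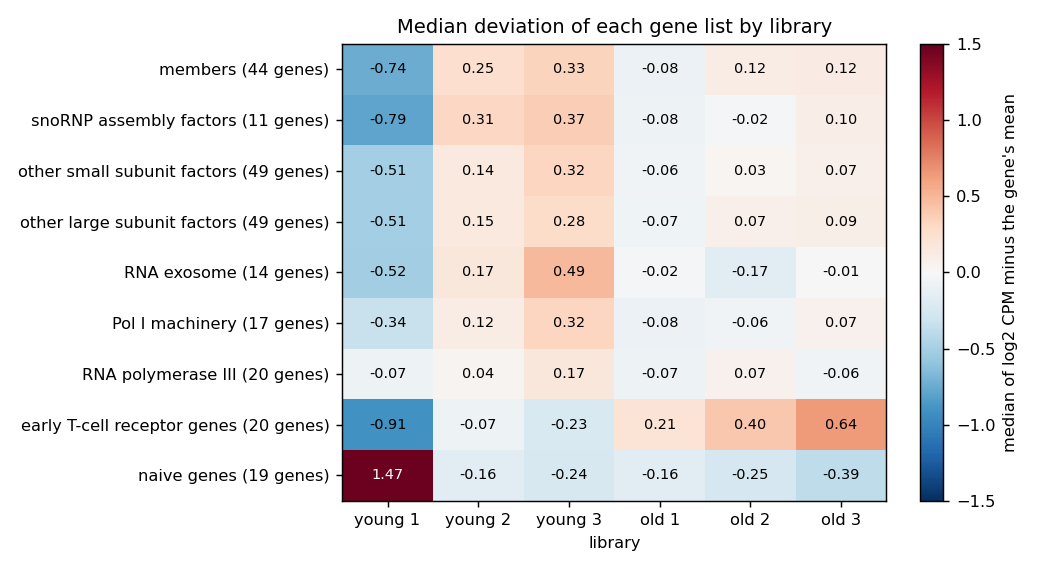
Median over each gene list, in each library, of log2 CPM minus the gene's mean over the 6 libraries, printed in each cell. The 44 factors and 5 of the 6 lists of the same pathway are lowest in young replicate 1, at -0.34 to -0.79, the early receptor genes are at -0.91 there and the naive genes at 1.47.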

How the data were processed

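Total RNA of 6 libraries, 3 young and 3 old by their sample titles, was sequenced on Illumina HiSeq, as the labels' protocols state. The authors deposited 1 table of 66712 RefSeq transcripts, giving for each transcript and library an expected count and FPKM, per the file headers. FPKM scales by transcript length and library total, and an expected count is a model's estimate that need not be whole. The submitters' processing notes name Bowtie, RSEM and GRCm38 (mm10). For their versions, strand setting and filters, nothing is given in the sources used here. The authors' mean columns differed from the means of the libraries by at most 3.3e-05 and were not used.

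Counts and FPKM were summed per Entrez gene, and 19830 of 19977 gene numbers matched RefSeq symbols. The other 147 kept their numbers and held 0.121% to 0.211% of a library's counts. These gene sums were rounded before testing with edgeR 4.0.16 (R 4.3.3, quasi-likelihood, TMM factors, no replicate block) on the 10509 genes whose mean FPKM reached 1, with Benjamini-Hochberg adjustment at 0.05. Standard errors were derived from the log2 difference and its F statistic, and intervals use the fit's degrees of freedom. CPM values are scaled by TMM factors. The effective length is the summed count divided by the summed product of FPKM and library total. The fit was also run on simulated counts, in which genes varied independently with a common spread and no library stood apart. That run does not cover a library such as young replicate 1. Alternatives used DESeq2 1.42.0 and limma 3.58.1, and figures matplotlib 3.10.9. Counts of every pair of libraries differed by more than sampling noise (chi-square per degree of freedom of 26.3 or more).

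The 44 genes, the lists and the set of alternatives were chosen with earlier results of these data known. Values in every library are given for the 2 most abundant genes of each role group by mean FPKM, the 2 with the largest log2 difference, every called gene, and Nop56, Nop58, Fbl, Ncl and Npm1. Of other lists the rule allows up to 2 genes with the smallest p, with Myc, Ubtf and Rrn3, and part of these is given.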

Additional observations from a re-analysis of the deposited data

How the results depend on the processing

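With all 6 libraries, 0 of the 44 genes were called higher or lower under each of 10 other settings that keep every library: RLE, upper-quartile or no scaling factors, no filter, a stricter filter at FPKM 5, DESeq2, limma on log2 FPKM with a pseudocount of 1 or 0.1, robust edgeR and a replicate block. The smallest adjusted p among the 44 genes lay between 0.482 and 0.647 in these tests. Their median log2 difference lay between 0.01 and 0.12, and between 24 and 33 of the 44 values were above 0. Up to 8 genes changed sign, none of them called before or after. Leaving out 1 library at a time gave 0 genes higher in every case, 0 to 2 lower, and a median of -0.24 to 0.22. The count of 2 and the lowest median came without young replicate 1, where 22 genes changed sign, and the highest came without young replicate 3, where 17 did. Length-trend offsets gave 0 lower genes of the 44 with all libraries, against 17 of all tested genes. With young replicate 1 left out they gave 1 lower gene of the 44, against 306 of all tested genes, and a median of -0.26.

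Libraries of the same number in both groups did not deviate together in every pair: the correlations of their deviations from the group means were 0.22, -0.03 and 0.18 for numbers 1, 2 and 3, and young replicate 2 correlated best with old replicate 3 (0.34). The replicate number was not taken as a pairing in the main fit. Deviations within a group are tied to each other through the group mean, so these correlations cannot decide whether libraries were paired. The fit with the replicate block called 0 of the 44 genes higher and 0 lower, with a median of 0.11, and 104 genes higher and 15 lower over the whole table, against 78 and 14 without it. Over the whole table DESeq2 called 374 higher and 127 lower, and edgeR with no filter 182 and 21. Leaving out 1 library gave 0 to 616 higher and 0 to 313 lower genes, the most without young replicate 1.

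The median standard error of the log2 difference was 0.28 over the 44 genes and 0.23 over all tested genes with all libraries. It was 0.14 and 0.16 without young replicate 1, with 2 young libraries left. How far counting error contributes to these errors was not tested.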
